A study of Mus musculus with 4 samples.

Results

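The cluster of miR-191 and miR-425 is a pair of neighbouring miRNA hairpins, Mir191 and Mir425, whose mature products were measured by small RNA-seq in mouse embryonic stem (ES) cells and in the epiblast-like aggregates (ELA) made from them. The members were chosen by name as both arms of both hairpins, mmu-miR-191-5p, mmu-miR-191-3p, mmu-miR-425-5p and mmu-miR-425-3p (written without the species prefix below), which gave 4 of the 1907 mature miRNAs listed. All 4 had reads in all 4 libraries. The study asked how the RNA-induced silencing complex, which miRNAs guide, acts as ES cells begin to differentiate. It tested miR-425-5p as a candidate regulator of SmarcA4 in a reporter assay.

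All samples came from E14Tg2A, a mouse ES cell line of strain 129/Ola. In the first ES group the cells were grown in 10% foetal calf serum with leukemia inhibitory factor (LIF), called serum here. In the other ES group they were grown in 2iL, a serum-free N2/B27 medium holding the MEK inhibitor PD0325901, the GSK3 inhibitor CHIR99021 and LIF. ES cells were taken at 0 days in vitro. Cells of each kind were also kept for 2 days as floating aggregates in a chemically defined minimal medium without LIF, which gave serum ELA and 2iL ELA, named after the medium the ES cells had been in. Each library was made from a pool of RNA from 3 sets of experiments, and each of the 4 groups has 1 library, so no value here has a replicate error. Intervals are exact 95% intervals on the reads and cover counting error only.

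A miRNA hairpin is cut from a longer primary transcript and then diced into a short duplex, and either strand of the duplex can be loaded into an Argonaute protein. The strand from the hairpin's 5′ side is called 5p and the other 3p. The loaded strand finds target messenger RNAs mainly through its seed, the bases 2 to 8. Mir191 and Mir425 lie next to each other on one strand and are generally thought to be cut from one primary transcript, and miR-191-5p is an abundant miRNA often used as a reference in quantitative PCR.

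The mature sequences are shown because the seed decides which targets each member could share with the others. They are taken from RefSeq, 5′ to 3′, with the seed in capitals.

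mmu-miR-191-5p: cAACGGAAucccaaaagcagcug

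mmu-miR-191-3p: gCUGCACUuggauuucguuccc

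mmu-miR-425-5p: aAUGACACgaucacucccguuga

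mmu-miR-425-3p: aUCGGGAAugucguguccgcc

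The 4 seeds differed from each other. The closest pair was miR-191-5p and miR-425-3p, which had the same base at 4 of the 7 seed positions, and the main products miR-191-5p and miR-425-5p had 2 of 7 in common. Among the other listed miRNAs with a RefSeq sequence, miR-489-3p had the seed of miR-425-5p, and no other had the seed of the remaining 3 members. Of the 1907 listed names, 1623 matched the RefSeq table, all 4 members included. miR-489-3p was rare, at 9.43 RPM (reads scaled to a library total of 1000000 miRNA reads) in serum ES and 36.0 RPM in serum ELA. In 2iL ES it was at 0.361 RPM and in 2iL ELA at 3.41 RPM, both under the limit that a count of 0 allows there (3 reads, or 1.08 and 5.11 RPM). Its level was below that of miR-425-5p in every library.

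The hairpins are shown with the mature arms in capitals, so that the position of each product in its stem can be seen.

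Mir191: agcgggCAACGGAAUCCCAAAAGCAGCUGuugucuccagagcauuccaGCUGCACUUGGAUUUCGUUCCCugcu

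Mir425: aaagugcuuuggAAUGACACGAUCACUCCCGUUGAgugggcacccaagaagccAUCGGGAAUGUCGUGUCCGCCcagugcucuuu

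In mm9, the build of the files, the 74-base Mir191 hairpin matched chr9:108470650-108470723 on the plus strand. The 85-base Mir425 hairpin matched chr9:108471108-108471192 on the same strand. The 2 hairpins are 384 bases apart and span 543 bases. In the mm9 annotation used here (GENCODE vM1) they are intergenic with regard to protein-coding genes. They begin 977 bases after the end of Ndufaf3, a gene on the minus strand, and end 1031 bases before the start of Dalrd3 on the plus strand. In the later RefSeq annotation of GRCm38.p6, both hairpins lie within the span of Dalrd3. GENCODE vM1 also lists a miRNA record on the minus strand over Mir191, and whether the authors' counting used strand is not given in the sources used here.

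The libraries held from 587363 reads (2iL ELA) to 8056984 reads (serum ES), recovered as whole numbers from the RPM values, and both 2iL libraries were shallower than the serum library of the same stage. The description field of the labels exchanges the 2iL ES and the serum ELA library relative to the titles, source names and column names, which were used here. With the other reading, the stage and medium contrasts below would change places. The 5 arms of miR-302 and miR-367 fixed as markers of primed epiblast summed to 5384 RPM in serum ES and 69.8 RPM in 2iL ES. They summed to 34066 RPM in serum ELA and 5751 RPM in 2iL ELA, so the library titled ES in 2iL was lowest and the one titled ELA from serum highest. With the titles they were higher in ELA than in ES cells in both media, and with the other reading they would be lower in ELA than in ES cells in serum, 69.8 against 5384 RPM. Of the 6 arms of the miR-290 to miR-295 cluster fixed as ES cell markers, 4 had reads. miR-290a-3p and miR-292a-3p were at 0 in all libraries in the deposited values, and why was not tested. The arms with reads summed to 68951 and 45801 RPM in the serum libraries (ES, then ELA). In the 2iL libraries they summed to 150596 and 116145 RPM. With the titles these sums were lower in ELA in both media, and with the other reading they would be higher in ELA. The liver marker miR-122-5p was at 0 in all libraries. Of the 5 blood markers, 4 were detected and miR-142a-3p was at 0 in all libraries. The summed level of this list was 594 and 551 RPM in the serum libraries (ES, then ELA) against 1612 and 2007 RPM in the 2iL libraries. All 4 fibroblast or mesenchyme markers had reads, miR-214-3p only 3 in 2iL ES and 1 in 2iL ELA. They summed to 3144 and 1470 RPM in the serum libraries and 4834 and 1961 in the 2iL libraries, lower in ELA in both media. The 3 neural markers summed to 433 and 297 RPM in the serum libraries and 301 and 264 RPM in the 2iL libraries. The 3 muscle markers summed to 11.5 and 48.5 RPM in the serum libraries and to 0 and 73.2 RPM in the 2iL libraries.

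miR-191-5p was among the most abundant miRNAs in every library, and it differed little between them. It was at 40917 RPM in serum ES (329668 reads, rank 7 of 1034 miRNAs with reads) and 40312 RPM in 2iL ES (111545 reads, rank 4 of 969). It was at 33374 RPM in serum ELA (143817 reads, rank 7 of 930) and 34039 RPM in 2iL ELA (19993 reads, rank 7 of 691). On the RPM scale the 2 ES libraries were higher than the 2 ELA libraries, with no overlap, and within a stage the media differed by less than the stages did. This order depended on the scaling. With TMM factors the log2 difference of 2iL minus serum was -0.60 in ES cells and -0.41 in ELA, against -0.27 and -0.08 for ELA minus ES in serum and 2iL. With DESeq2 size factors these were -0.43 and -0.46 against -0.10 and -0.13, so that under both the media differed more than the stages and 2iL ES lay below serum ELA. With RPM, ELA had 1.23-fold less miR-191-5p than ES cells in serum and 1.18-fold less in 2iL. As log2 ratios these were -0.29 (-0.30 to -0.29) and -0.24 (-0.27 to -0.22). Between media the log2 ratio of 2iL to serum was -0.02 (-0.03 to -0.01) in ES cells and 0.03 (0.01 to 0.05) in ELA.

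miR-425-5p was much less abundant and was higher in the libraries of 2iL cells. It was at 298 RPM in serum ES (2400 reads, rank 132) and 726 RPM in 2iL ES (2010 reads, rank 92). It was at 245 RPM in serum ELA (1054 reads, rank 142) and 497 RPM in 2iL ELA (292 reads, rank 111). Both 2iL libraries were above both serum libraries, and within each medium the ELA library was below the ES library. The level in 2iL was 2.44-fold that in serum in ES cells, a log2 ratio of 1.29 (1.20 to 1.37), and 2.03-fold in ELA, a log2 ratio of 1.02 (0.83 to 1.21). From ES cells to ELA the log2 ratio was -0.28 (-0.39 to -0.18) in serum and -0.55 (-0.73 to -0.37) in 2iL. The 2iL libraries were also those with fewer reads. At both stages they had higher sums of the ES cell, blood and fibroblast markers and lower sums of the neural and primed epiblast markers. The blood sum was nearly all miR-142a-5p, and the neural marker miR-124-3p had a higher share in 2iL ES than in serum ES. The part of depth or of any marker list in the difference was not tested.

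**Figure D1:**
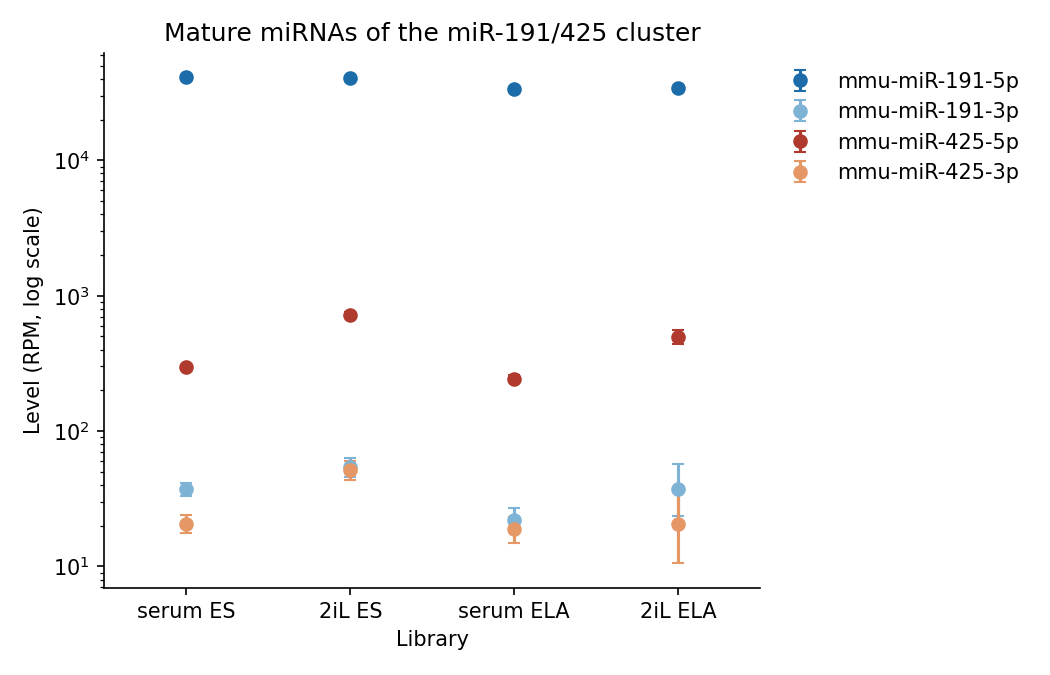
Level of the 4 mature miRNAs of the cluster (RPM, log scale) in each of the 4 libraries, with exact 95% intervals on the reads. miR-191-5p stays between 33374 and 40917 RPM, miR-425-5p is higher in both 2iL libraries (726 and 497 RPM) than in both serum libraries (298 and 245 RPM), and the 3p arms lie below 54 RPM.

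The 3p arms, the less abundant strands of both hairpins, were rare. miR-191-3p was at 37.2 RPM in serum ES (300 reads), 53.8 RPM in 2iL ES (149 reads), 22.0 RPM in serum ELA (95 reads) and 37.5 RPM in 2iL ELA (22 reads). It was lowest in serum ELA and highest in 2iL ES, and serum ES and 2iL ELA differed by less than their intervals. Its log2 ratio of ELA to ES was -0.76 (-1.10 to -0.42) in serum and -0.52 (-1.24 to 0.13) in 2iL, so the second interval included no difference. Its log2 ratio of 2iL to serum was 0.53 (0.24 to 0.82) in ES cells and 0.76 (0.02 to 1.45) in ELA.

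miR-425-3p was at 20.6 RPM in serum ES (166 reads), 51.3 RPM in 2iL ES (142 reads), 18.8 RPM in serum ELA (81 reads) and 20.4 RPM in 2iL ELA (12 reads). 2iL ES stood above the other 3 libraries, whose intervals overlapped. In ES cells the level in 2iL was 2.49-fold that in serum, a log2 ratio of 1.32 (0.98 to 1.65), close to that of miR-425-5p. In ELA the log2 ratio was 0.12 (-0.89 to 1.00), an interval that included 0 and overlapped that of miR-425-5p in ELA (0.83 to 1.21). From ES cells to ELA the log2 ratio was -0.13 (-0.53 to 0.26) in serum and -1.33 (-2.32 to -0.48) in 2iL.

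Both hairpins summed, the cluster gave 4.13% of miRNA reads in serum ES (4.11 to 4.14), 4.11% in 2iL ES (4.09 to 4.14), 3.37% in serum ELA (3.35 to 3.38) and 3.46% in 2iL ELA (3.41 to 3.51). Its share was lower in ELA than in ES cells in both media. miR-191-5p made up between 98.0% and 99.2% of the cluster's reads, so the total follows that arm.

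Each contrast was then read against all other miRNAs. With the mean of both media, the log2 difference of ELA minus ES on the log2(RPM + 1) scale was -0.27 for miR-191-5p, -0.62 for miR-191-3p, -0.41 for miR-425-5p and -0.71 for miR-425-3p. The median of the 4 was -0.52, against -0.08 over the 302 miRNAs whose mean log2(RPM + 1) was 5 or more. None of the 3 members above that mean (miR-425-3p is below it) passed a log2 difference of 1 in size, which 27.8% of the 302 did (35 higher and 49 lower in ELA with RPM, 50 and 37 with DESeq2 size factors). All 4 members were lower in ELA in both media, as were 39.1% of the 302. With the size factors of DESeq2 this held for 3 members, miR-425-3p having a difference of 0.06 in serum, and with library totals that leave out the 5 most abundant miRNAs it also held for 3, miR-191-5p having a difference of 0.00 in 2iL.

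Between media, the mean log2 difference of 2iL minus serum was 0.00 for miR-191-5p, 0.63 for miR-191-3p, 1.15 for miR-425-5p and 0.70 for miR-425-3p. The median of the 4 was 0.66, against 0.42 over the 302. Only miR-425-5p of the 3 members above the mean passed a log2 difference of 1, which 37.1% of the 302 did, and its difference was above that of 80.1% of them. The size of the difference of miR-191-5p was larger than that of 0.331% of the 302. 3 of the 4 members, all but miR-191-5p, were higher in 2iL at both stages, as were 52% of the 302.

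The medium differences depend on how the libraries are scaled. The median over the 302 was 0.42 with RPM, -0.08 with TMM factors and -0.02 with DESeq2 size factors, and of the miRNAs past the fold 72 were higher and 40 lower with RPM against 33 and 69 with TMM and 38 and 63 with DESeq2. Under TMM and DESeq2 factors miR-425-5p was at 0.65 and 0.71, positive at both stages but below the fold, and miR-191-5p was at -0.50 and -0.44. With TMM miR-425-5p was the only member higher in 2iL at both stages, miR-191-3p being at -0.04 in ES cells and miR-425-3p at -0.30 in ELA. With DESeq2 factors miR-425-3p was at -0.35 in ELA. Relative to the median of all 302 on the RPM scale, miR-425-5p was at 0.73 and miR-191-5p at -0.42. The medium difference of miR-425-5p was above that of miR-191-5p under each scaling, since a scaling moves both by nearly the same amount.

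**Figure D2:**
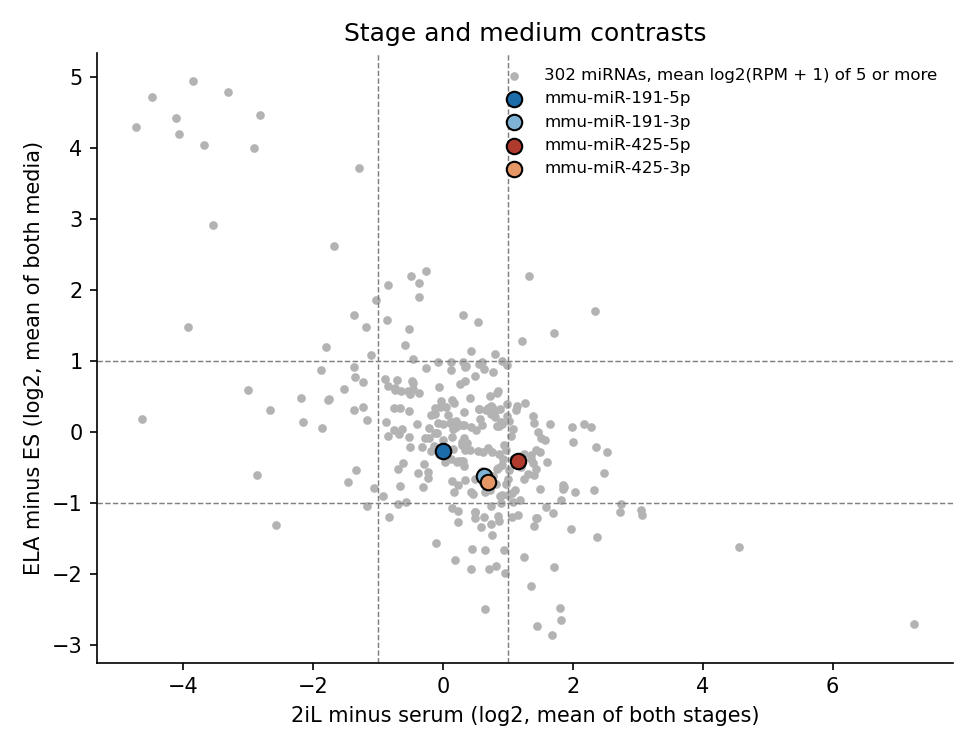
Mean log2 difference of ELA minus ES (vertical) against 2iL minus serum (horizontal), on the log2(RPM + 1) scale, for the 302 miRNAs with a mean of at least 5 (grey) and the 4 members (colours), with dashed lines at a log2 difference of 1 in size. All 4 members lie below 0 on the vertical axis and inside the dashed lines there, and on the horizontal axis miR-191-5p lies at 0.00 and miR-425-5p at 1.15.

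limma, fitted to the 599 miRNAs that had 10 or more reads in 2 or more libraries, with stage and medium as terms, left 1 residual degree of freedom. At a Benjamini-Hochberg adjusted p under 0.05 it called 0% of the 599 for stage and 0% for medium, no member included. At an unadjusted p under 0.05 there were 125 for stage and 176 for medium. On recovered reads edgeR's quasi-likelihood test called 39 for stage and 64 for medium, and DESeq2's Wald test called 50 and 80. No member was called by any of these tools. For stage, limma gave -0.27 ± 0.44 (SE, adjusted p = 0.744) for miR-191-5p and -0.41 ± 0.44 (adjusted p = 0.606) for miR-425-5p. For medium it gave 0.00 ± 0.44 (adjusted p = 0.997) for miR-191-5p and 1.15 ± 0.44 for miR-425-5p, with an unadjusted p = 0.0497 and an adjusted p = 0.170. The 3p arms had adjusted p from 0.387 to 0.455 over both contrasts by limma.

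The ratio of the main products within a library does not depend on scaling, and it differed between media far more than between stages. There were 137 reads of miR-191-5p per read of miR-425-5p in serum ES (132 to 143) and 136 in serum ELA (128 to 145). There were 55.5 in 2iL ES (53.1 to 58.0) and 68.5 in 2iL ELA (61.0 to 77.1). The serum libraries overlapped with each other and stood apart from both 2iL libraries. On the log2 scale the ratio changed by -1.31 from serum to 2iL in ES cells and by -0.99 in ELA, a mean of -1.15 or 2.22-fold. An exact two-sided permutation test over the 4 libraries gave p = 0.333, the smallest that 2 libraries against 2 can give. From ES cells to ELA the log2 ratio changed by -0.01 in serum and by 0.30 in 2iL. With both arms of each hairpin summed, there were 129, 51.9, 127 and 65.8 reads of miR-191 per read of miR-425 in serum ES, 2iL ES, serum ELA and 2iL ELA. Most of these reads are 5p reads, so the order of the libraries was as for the main products. The 3p arms alone, with far fewer reads, did not follow that order. There were 1.81 reads of miR-191-3p per read of miR-425-3p in serum ES (1.49 to 2.20) and 1.05 in 2iL ES (0.83 to 1.33). In serum ELA there were 1.17 (0.86 to 1.60), and in 2iL ELA 1.83 (0.87 to 4.06). The ratio was lower in 2iL than in serum in ES cells, without overlap of the intervals, and in ELA the intervals overlapped.

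The ratio between the arms of one hairpin was likewise taken within each library. miR-191 gave 1099 reads of 5p per read of 3p in serum ES (981 to 1235), 749 in 2iL ES (638 to 885), 1514 in serum ELA (1238 to 1871) and 909 in 2iL ELA (600 to 1450). The ratio was lowest in 2iL ES and highest in serum ELA. The interval of 2iL ES lay below those of both serum libraries. miR-425 gave 14.5 reads of 5p per read of 3p in serum ES (12.3 to 17.0), 14.2 in 2iL ES (11.9 to 16.9) and 13.0 in serum ELA (10.4 to 16.5). In 2iL ELA it gave 24.3, but with 12 reads of the 3p arm the interval ran from 13.7 to 47.6 and overlapped the others. As shares, miR-425-5p made up 93.5%, 93.4%, 92.9% and 96.1% of the hairpin's reads in the same order of libraries, and miR-191-5p between 99.87% and 99.93%. The 5p arm was the main product of both hairpins in every library, more so for miR-191.

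**Figure D3:**
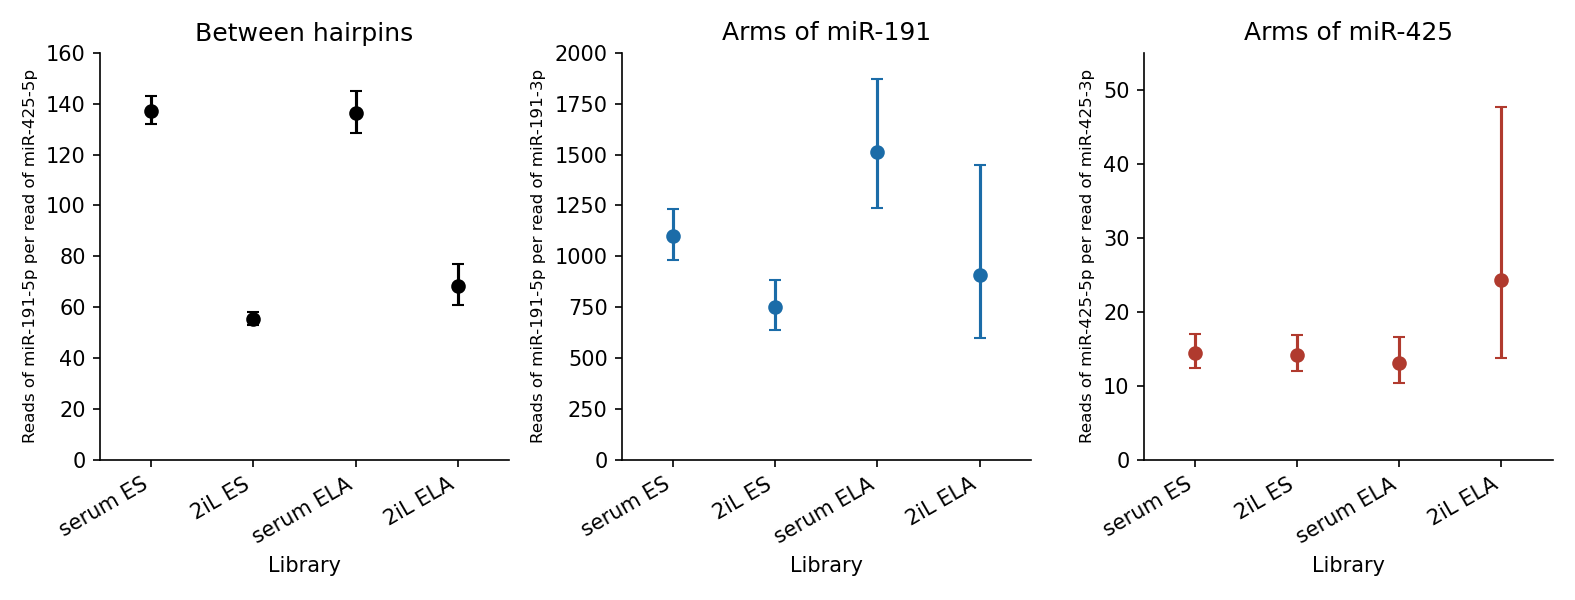
Read ratios within each library, with exact 95% intervals: miR-191-5p per miR-425-5p (left), and 5p per 3p for miR-191 (middle) and miR-425 (right). The left panel shows both serum libraries near 137 and both 2iL libraries at 55.5 and 68.5, while the right panel shows 3 libraries between 13.0 and 14.5 and 2iL ELA at 24.3 with a wide interval.

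Because miR-191-5p serves as a reference miRNA, its spread over the libraries was set beside that of the others, a comparison chosen after its values were seen. Its highest and lowest libraries differed by 0.29 on the log2(RPM + 1) scale, against a median of 1.65 over the 302 miRNAs. This was the 6th smallest range of the 302 and the smallest of the 18 miRNAs with a mean of at least 10000 RPM. With TMM factors the range was 0.68 (27th of 302, 3rd of 18) and with DESeq2 size factors 0.55 (21st of 302, 2nd of 18). With totals that leave out the 5 most abundant miRNAs it was 0.37 (8th of 302, and the smallest of the 18). Under each of the 4 scalings the range of miR-191-5p was below 1. miR-425-5p had a range of 1.57 with RPM (place 142 of 302), 0.97 with TMM (place 72) and 0.97 with DESeq2 (place 73). miR-191-3p had a range of 1.25 with RPM (place 99), 0.71 with TMM (place 33) and 0.67 with DESeq2 (place 30). The gap between miR-191-3p and miR-191-5p thus narrowed to 0.71 against 0.68 with TMM.

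**Figure D4:**
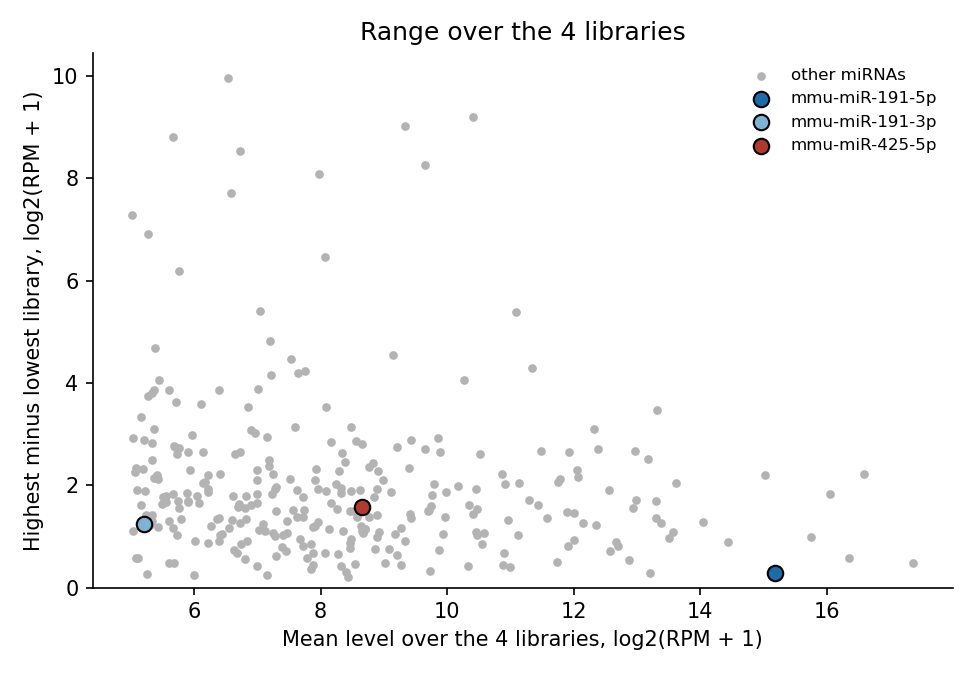
Range over the 4 libraries (highest minus lowest, log2(RPM + 1)) against the mean level for the 302 miRNAs with a mean of at least 5 (grey), with the 3 members above that mean in colour. miR-191-5p lies near the bottom at 0.29 and at the high end of the levels, and miR-425-5p lies among the others at 1.57.

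The miRNAs with profiles most like those of the members were ranked by the root mean square difference of log2(RPM + 1), each profile centred on its own mean, over 4 libraries. The nearest to miR-191-5p were miR-412-5p (0.02), miR-148b-3p (0.10), miR-378c (0.11), miR-487b-3p (0.13) and miR-183-3p (0.14). The nearest to miR-425-5p were miR-30d-5p (0.06), miR-15b-3p (0.12), miR-23b-3p (0.14), miR-295-3p (0.15) and miR-667-3p (0.15). miR-30d-5p was at 2997 RPM in serum ES, 7398 in 2iL ES, 2676 in serum ELA and 4832 in 2iL ELA, the order of libraries seen for miR-425-5p. The 2 hairpins were not near each other by this measure. miR-425-5p had place 135 of 301 among the miRNAs nearest to miR-191-5p, and miR-191-5p had place 124 of 301 among those nearest to miR-425-5p. The arm miR-191-3p had place 35 near miR-425-5p and place 57 near its own partner miR-191-5p. With Pearson correlation as the measure of likeness these were places 68 and 52, so the order of the places depended on the measure. The places come from 2 different lists. The distance itself was smaller to miR-425-5p than to miR-191-5p, 0.31 against 0.36, and it was also smaller with Pearson correlation and with TMM and DESeq2 factors.

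The pair was also set beside other neighbouring hairpins. Over 66 pairs of hairpins whose starts are less than 1000 bases apart on one strand, formed by 61 hairpins so that pairs share members, the more abundant arms were compared. For stage, the log2 differences of miR-191-5p and miR-425-5p were 0.15 apart, against a median of 0.41 over the pairs, and 11 pairs were closer (17 with both arms of each hairpin summed). For medium they were 1.15 apart, against a median of 0.73, and 13 pairs were farther apart. With starts up to 10000 bases apart, 48 of 245 pairs were closer for stage and 89 were farther apart for medium. The pairs next to it in the order for stage were Mir221/Mir222 (0.15), Mir18/Mir20a (0.14) and Mir679/Mir1193 (0.14). For medium they were Mir302b/Mir367 (1.16), Mir429/Mir200a (1.13) and Mir302a/Mir302d (1.17). The cluster was thus on the closer side of the pairs for stage and on the wider side for medium, within the range of the others in both.

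**Figure D5:**
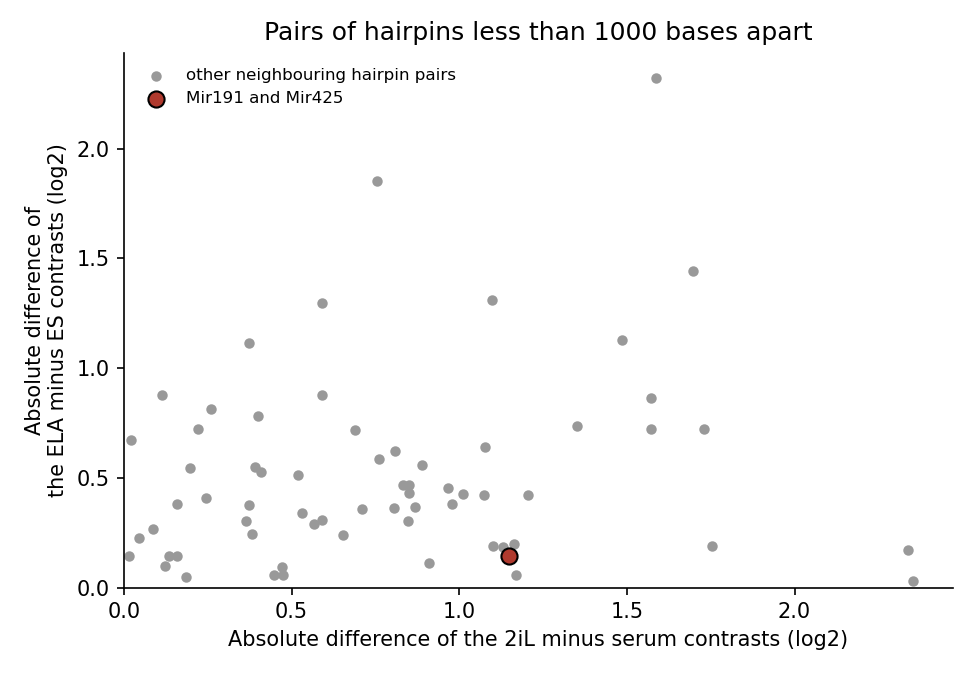
Absolute difference of the stage contrasts (vertical) and of the medium contrasts (horizontal) between the more abundant arms of hairpins less than 1000 bases apart, in log2 units, with 1 point per pair and the Mir191 and Mir425 pair in red. The pair lies at 1.15 for medium and 0.15 for stage.

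miR-425-5p is one of the miRNAs the study transfected, with miR-150-5p, miR-27b-5p, miR-181c-5p and miR-295-5p. As the study picked these from miRNAs it listed as changing between the same libraries, and by predicted binding to its targets, their directions are not independent evidence. The paper's limit for a lower miRNA was a log2 fold change of at least 1 in size. By the values here miR-425-5p did not reach it in serum (-0.28) or in 2iL (-0.55). miR-27b-5p reached it in 2iL only (-1.58) and miR-295-5p in serum only (-1.08). The mean log2 difference of ELA minus ES was -0.41 for miR-425-5p, against -2.49 for miR-150-5p, -0.85 for miR-27b-5p, -2.48 for miR-181c-5p and -0.82 for miR-295-5p. Each of the 5 mean values was negative, that of miR-425-5p the smallest in size. In serum alone that of miR-27b-5p was smaller, at -0.12 against -0.28, and in 2iL alone miR-27b-5p was at -1.58 and miR-425-5p at -0.55. For 2iL minus serum the difference was 1.15 for miR-425-5p, against 0.65, 0.43, 1.81 and 1.11 in the same order. limma called none of the 5 for either contrast, with adjusted p from 0.114 to 0.638.

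The SmarcA4 gene encodes the ATPase of the esBAF chromatin remodelling complex, and its longest annotated 3′UTR was searched for letters that pair with the members' seeds. In the 1262 bases of Smarca4-202 (GENCODE vM1), on the strand of the transcript, the letters pairing with the bases 2 to 7 of miR-425-5p, TGTCAT, were not found, and so neither were the longer matches. TGTCAT was present in 31.2% of the 19915 3′UTRs searched and in 34.0% of the 2697 whose length was within 20% of that of Smarca4. The letters pairing with the bases 3 to 8, GTGTCA, were found at position 354, and 25.9% of all 3′UTRs and 27.6% of those of like length held them. The site is shown with these letters in capitals.

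miR-425-5p in Smarca4, chr9:21507754-21507777 (mm9, plus strand): gcgggtatgtcaGTGTCActggag

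miR-191-3p had a match to its bases 2 to 7 followed by an A, shown in capitals, at position 649 of the same 3′UTR. These letters, GTGCAGA, were in 10.7% of all 3′UTRs and in 10.7% of those of like length.

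miR-191-3p in Smarca4, chr9:21508046-21508068 (mm9, plus strand): acctctggccctcatGTGCAGAt

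The letters pairing with the bases 2 to 7 of miR-191-5p, TCCGTT, were not in this 3′UTR and were in 7.74% of all 3′UTRs. In the 3′UTRs of the study's other reporter targets, Kdm2b (2124 bases, Kdm2b-007) held 1 TCCGTT, as part of TTCCGTTA (in 0.362% of all 3′UTRs), and 1 TGTCAT, as part of TGTCATA (in 7.69%), while Dnmt3b (1331 bases, Dnmt3b-002) held neither TCCGTT nor TGTCAT. Such matches describe letters in 1 annotated transcript of each gene, and their absence says only that these letters are not in this window.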

How the data were processed

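Small RNA of 4 libraries, 1 per combination of stage and medium, was sequenced. The authors trimmed reads with Trimmomatic, mapped them to mm9 with Bowtie, counted them with featureCounts over the mature miRNAs of miRBase release 20 and deposited RPM values, each library summing to 1000000 over the listed miRNAs; CASAVA 1.8 is also named, and the other tools' versions are not given in the sources used here. RPM is a share of miRNA reads and not an amount per cell, so fewer cells of a type and less RNA per cell cannot be told apart. Whole reads were recovered from the RPM steps, with 100% of values within 0.01 read of a whole number. 0 columns of per-sample values were left out. Groups follow the titles.

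The differences were computed on log2(RPM + 1), which understates changes of low miRNAs, and tested with limma 3.58.1 in R 4.3.3 (two-sided, Benjamini-Hochberg over 599 miRNAs that had 10 or more reads in 2 or more libraries). edgeR 4.0.16 and DESeq2 1.42.0 on recovered reads, other scalings, pseudocounts and filters were alternatives. The fits were tested on simulated data. The within-medium and within-stage ratios of shares used exact (Clopper-Pearson) intervals, which treat reads as independent although PCR copies are not. Named miRNAs were the 4 members, the 5 nearest profiles of each main arm, miRNAs with a member's seed, the transfected miRNAs and the neighbouring pairs next in order. The members and lists were chosen with earlier results of these data known. Hairpins were placed by exact match in the mm9 genome. The RefSeq tables are of GRCm38.p6 and gave sequences, names and the position of the hairpins relative to Dalrd3, with none of their coordinates printed.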

Additional observations from a re-analysis of the deposited data

Results flagged for a closer look

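The medium difference of miR-191-5p had opposite signs at the 2 stages: 2iL minus serum was -0.02 on the log2(RPM + 1) scale in ES cells and 0.03 in ELA, and the 2 differences were 0.0499 apart. With 1 library per group this difference between stages was not tested. With TMM factors the values were -0.60 in ES cells and -0.41 in ELA, and with DESeq2 size factors -0.43 and -0.46, so the opposite signs were not seen under those scalings. With totals that leave out the 5 most abundant miRNAs they were -0.30 and 0.07.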

How the results depend on the processing

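Stage and medium were already terms of the fit. No further pairing was possible, because each group has 1 library and the labels give no replicate numbers to use as a block. No replicate could be left out. Of 84 alternative values of the members' stage and medium differences, which count other scalings for the mean over both media or stages only, 78 kept their direction and 6 reversed. The stage differences so counted were negative in 42 of 42. Within 1 medium or stage, other scalings turned the sign of the stage difference of miR-425-3p in serum (0.06, DESeq2 size factors) and of miR-191-5p in 2iL (0.00, without the 5 most abundant miRNAs). They also turned that of the medium difference of miR-425-3p in ELA (-0.30 with TMM, -0.35 with DESeq2), of miR-191-3p in ES cells (-0.04 with TMM) and of miR-191-5p in ELA (-0.41 and -0.46). No member had an adjusted p under 0.05 in the 68 fits that gave one. The lowest was 0.104, for the medium difference of miR-425-5p, whose adjusted p ranged from 0.104 to 0.438. The 6 reversed values so counted were all the medium difference of miR-191-5p, 0.00 with RPM: -0.50 with TMM factors, -0.44 with DESeq2 size factors, -0.12 without the 5 most abundant miRNAs in the totals, -0.42 by edgeR, -0.38 by DESeq2's Wald test and -0.0215 with the ES libraries alone. The number of miRNAs called by limma moved from 0 with most choices: for stage and medium it was 9 and 25 with a filter of at least 50 reads in all 4 libraries, 99 and 130 without a filter, 9 and 38 with a pseudocount of 5 RPM, 28 and 55 with TMM factors, 84 and 112 with DESeq2 size factors, and 89 and 109 without the 5 most abundant miRNAs. edgeR called 39 and 64, and DESeq2's Wald test 50 and 80. A pseudocount of 0.5 RPM gave 0 for both. The cause was not tested. With both arms summed, the log2 ratio of miR-191 to miR-425 moved beyond its counting interval, from 7.10 to 7.01 in ES serum, from 5.79 to 5.70 in ES 2iL and from 7.09 to 6.99 in ELA serum. The place of the pair among neighbouring hairpins for stage moved from the 16.7th to the 25.8th percentile with both arms summed. The range over 4 libraries under other scalings was added after seeing the data. Depth limits the 3p arms most, with 22 and 12 reads in ELA 2iL.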
